A study of Mus musculus with 8 samples.

Results

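The genes described here encode receptors, a peptide and enzymes of angiotensin, endothelin, prostaglandin and vasopressin signalling. They were taken by symbol from the deposited count lists, and all 10 were found once each among 24639 gene entries. They are the angiotensin II type 1 receptor genes Agtr1a and Agtr1b, the endothelin genes Edn1, Ece1, Ednra and Ednrb, the prostaglandin genes Ptgs1, Ptgs2 and Ptger4, and the vasopressin receptor gene Avpr1a. Primary mouse mesangial cells (MMC) were grown from kidney glomeruli of wild-type C57BL/6J mice (WT MMC) and of mice with a CRISPR-Cas9 nickase deletion at miR-379 (miR-379KO MMC). The methods name no agent for the sequenced cells and do not state their glucose condition. MMC were kept in RPMI medium with foetal bovine serum and used after several passages. The age of the mice was not given for these cells. RNA was sequenced from whole cells (total RNA) and from anti-AGO2 beads (AGO2-IP), which recover Argonaute 2, the protein that microRNAs guide to RNAs. The methods describe exposure to UV light, which cross-links protein to RNA, and sonication before the AGO2 step, and neither for total RNA, so the assays differ in this as well. The 8 libraries formed 4 groups of 2 replicates, A and B. The study calls A and B of AGO2-IP independent samples and describes glomeruli pooled before culture, but the sources used here do not say whether A and B were separate cultures or animals. The p-values therefore measure the spread between these samples, part of which may be technical.

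Mesangial cells are the contractile cells that hold the capillary loops of the glomerulus together. Angiotensin II, endothelin-1 and vasopressin act on G protein-coupled receptors that raise calcium and contract them. Prostaglandin E2, made in the cells from arachidonic acid by the cyclooxygenases, acts back on its own receptors and is known to oppose that contraction.

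The comparisons asked what loss of miR-379 did to the RNA level of these genes and to their AGO2-bound RNA. miR-379-5p lies at chr12:109709065-109709085 on the plus strand (GRCm38.p6, RefSeq, the build of all coordinates given here). The match to its seed, bases 2 to 8, is GTCTACC, and the match to bases 2 to 7 is TCTACC. These were searched on the sense strand of each gene's longest RefSeq 3′-UTR, and the 6-base match lies inside the 7-base one. Of the 10 genes, only Edn1 held the 7-base match, at chr13:42307452-42307458 on the plus strand. Ednrb (chr14:103815466-103815471, minus strand) and Ptger4 (chr15:5234318-5234323, minus strand) held the 6-base match alone. Matches to the other mature strand, miR-379-3p, and matches outside these 3′-UTRs were not searched. The microRNA is shown first with its seed in capitals. The 3 sites found follow in the sense of the mRNA, with the matching bases in capitals.
miR-379-5p: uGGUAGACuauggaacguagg
Edn1 3′-UTR: catgaatatgaGTCTACCtcacctttct
Ednrb 3′-UTR: acaatgcagtttTCTACCaaaatcattg
Ptger4 3′-UTR: tactggaagggcTCTACCccaaactctg
The 7-base match was in 776 of 19135 genes with a 3′-UTR (4.06%), and in 4.57% of the 1204 genes whose 3′-UTR was within 10% of the length of that of Edn1. The 6-base match was in 21.1% of all genes, in 38.1% of those with a 3′-UTR near the length of that of Ednrb and in 24.7% of those near Ptger4. These matches describe the sequence only.

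Total RNA libraries held 17168230 to 22660743 gene counts and AGO2-IP libraries 5587611 to 17095021. In AGO2-IP 80.0% to 89.0% of gene counts fell on Rn45s and Lars2, compared to 4.67% to 9.58% in total RNA, so that 1115782 to 1875037 counts remained for all other genes. Reads outside genes took 46.6% and 49.7% of the uniquely placed reads of the WT AGO2-IP libraries but 73.4% and 76.4% of those of miR-379KO, so their make-up differed with genotype. The methods name small RNA sequencing for this RNA and count its reads in the reverse-stranded mode used for total RNA, so the strand was checked in the counts. In RefSeq 13 genes lay at least 90% inside exons of a gene on the other strand that had 1000 or more total RNA counts. Reads taken from both strands alike would have given these 13 genes 485 AGO2-IP counts, of which 314 on Peg3os inside Peg3, if spread evenly along the host exons. They had 48, of which 7 on Peg3os, against 2406 on Peg3 itself, and in total RNA they had 84 where 4754 would have been given. The AGO2-IP counts of these hosts thus lay mainly on the strand of the annotated gene. The miR-379 gene had 0 counts in every total RNA library. In AGO2-IP the WT libraries had 0 and 4 counts of it and the miR-379KO libraries 1 and 0, so these counts do not check the deletion. In total RNA 10 of 12 mesangial and pericyte markers were at 1 or more on the counts-per-million (CPM) scale in every library. Itga8, at 0.383 CPM in its lowest library, and Thy1, with at most 0.130 CPM, were not. The list summed to 16983 to 25271 CPM. Most of that was Acta2 (6882 to 10690 CPM), Tagln (4017 to 6821 CPM) and Vim (5284 to 7331 CPM). Of 8 endothelial markers 0 reached 1 CPM in every library, with sums of 1.67 to 3.43 CPM, and leukocyte markers summed to 1.85 to 5.14 CPM (0 of 8). Of 6 podocyte markers 3 did, namely Podxl, Synpo and Wt1, while Ptpro was at 0, Nphs1 had at most 4 counts and the list summed to 240.1 to 628 CPM. Tubular markers (2 of 9) summed to 9.24 to 33.3 CPM and fibroblast markers (1 of 4), of which nearly all was Col1a1, to 2822 to 5786 CPM. In these bulk samples fewer cells of a type and less RNA per cell cannot be told apart.

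Endothelin-1 mRNA and the prostaglandin genes were clearly present in total RNA, whereas 4 of the 6 receptor genes had at most 10 counts in any total RNA library. Levels below are in CPM on TMM-scaled library sizes. Edn1, Ece1, Ptgs1, Ptgs2 and Ptger4 were at 1 CPM or more in all 4 total RNA libraries. Ednra fell just outside that threshold, at 0.822 CPM in its lowest library, and would be the 6th gene at 0.5 CPM. The lowest single value of the 5 was that of Edn1, at 10.2 CPM. Agtr1a and Agtr1b had 0 counts throughout, Ednrb at most 1 and Avpr1a at most 10. Compared per kilobase of exon in WT MMC, Ptgs2 was highest at 52.4 ± 11.3 CPM per kb (SD, n = 2). Ece1 followed at 12.3 ± 2.02 CPM per kb, Ptgs1 at 12.1 ± 3.37, Edn1 at 7.82 ± 4.28 and Ptger4 at 5.82 ± 1.40. Ece1, Ptgs1 and Edn1 did not differ from one another beyond their spread, nor did Edn1 and Ptger4. Ednra was at 0.429 ± 0.0514 CPM per kb, Avpr1a at 0.0828 ± 0.0856 and Ednrb at 0.00628 ± 0.00888. Among all genes tested in total RNA, 93.1% had a lower level per kb than Ptgs2, 62.8% than Ptgs1, 61.0% than Ece1, 56.1% than Edn1, 44.3% than Ptger4 and 6.35% than Ednra.

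**Figure D1:**
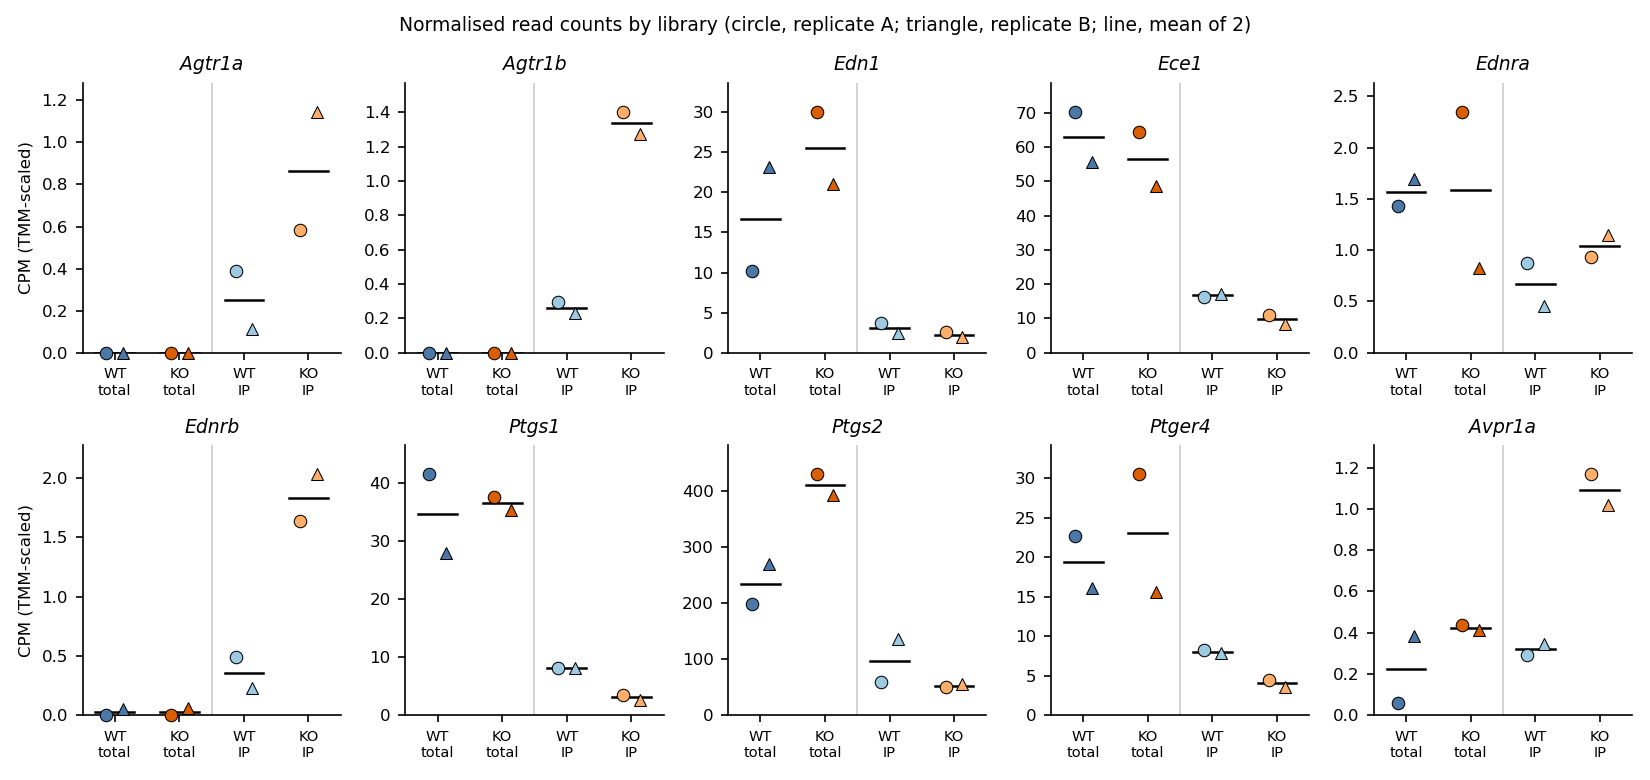
Normalised read counts of the 10 genes (y axis, CPM on TMM-scaled library sizes, linear from 0, one scale per gene) in WT and miR-379KO (KO) total RNA and AGO2-IP (x axis); circles are replicate A, triangles replicate B and lines the mean of 2. Ptgs2 in total RNA lay higher in both miR-379KO libraries (392 and 429.6 CPM) than in both WT libraries (198 and 269.5 CPM), and Agtr1a and Agtr1b had counts in AGO2-IP alone.

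Agtr1a (chr13:30336356-30382867, plus strand) and Agtr1b (chr3:20314473-20367177, minus strand) encode the 2 mouse forms of the angiotensin II type 1 receptor. Both had 0 counts in each total RNA library. Over the 2 libraries of a genotype, a floor of 3 counts allows up to 0.0934 (WT) and 0.0794 (miR-379KO) CPM, computed without Rn45s and Lars2 and covering counting error only. The counting left out reads placed in more than 1 location, but only 1.45% of the exon windows of Agtr1a and 1.51% of those of Agtr1b were the same in both genes, at 51 bases, the shorter read length in the methods. The AGO2-IP libraries did hold reads of both. Agtr1a was counted 4 times in WT A and 1 time in WT B, and 5 and 9 times in miR-379KO. Agtr1b was counted 3 and 2 times in WT, and 12 and 10 times in miR-379KO. On that scale, the AGO2-IP value in WT was 15.4-fold that floor for each of them, from 5 counts over the 2 libraries. In miR-379KO it was 72.8-fold the floor for Agtr1a, from 14 counts, and 114-fold for Agtr1b, from 22 counts. These ratios leave out the counting error of the AGO2-IP counts, so they are not lower bounds. Agtr1a did not pass the count filter in AGO2-IP, while Agtr1b did through its miR-379KO libraries.

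Edn1 (chr13:42301476-42307990, plus strand) encodes the precursor of endothelin-1. Its total RNA counts were 172 (WT A), 424 (WT B), 691 (miR-379KO A) and 358 (miR-379KO B), or 10.2, 23.2, 30.03 and 21.02 CPM. The WT A library was the low one, and the remaining WT library lay between the miR-379KO ones, so the groups overlapped. The fitted change was a log2 fold change of 0.61 ± 0.42 (SE), with an adjusted p of 0.9997 in edgeR. It moved to 0.14 without WT A and to 1.32 without WT B. In the same order, the AGO2-IP counts of Edn1 were 38, 21, 22 and 15, or 3.71, 2.42, 2.57 and 1.91 CPM. These groups overlapped as well, and the change of -0.46 ± 0.36 on the log2 scale did not pass (adjusted p = 0.348, edgeR). Edn1 was the only expressed gene of the 5 with no call in AGO2-IP, at 15 to 38 counts per library. Whether its 7-base match bears on its AGO2-IP level was not tested.

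Ece1 (chr4:137862237-137965229, plus strand) encodes the membrane protease that cuts the precursor to active endothelin-1. Its total RNA counts were 1179 and 1018 for WT and 1479 and 829 for miR-379KO. At 70.3, 55.7, 64.3 and 48.7 CPM the groups overlapped, and the log2 fold change was -0.16 ± 0.25, close to 0 relative to its error. Its AGO2-IP counts were 167 and 150 for WT but 94 and 67 for miR-379KO. At 16.3 and 17.3 CPM against 10.98 and 8.52 the groups did not overlap, and the log2 fold change of -0.78 ± 0.23 passed (adjusted p = 0.0129, edgeR).

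Ednra (chr8:77663029-77724452, minus strand) encodes the endothelin receptor that drives contraction, and Ednrb (chr14:103814615-103844508, minus strand) the receptor that also clears endothelin. Ednra had total RNA counts of 24 and 31 for WT and 54 and 14 for miR-379KO, so the miR-379KO libraries lay on either side of the WT ones. Its log2 fold change was 0.03 ± 0.61, and a change within that error was not detectable at this depth. Its AGO2-IP counts, 9 and 4 for WT against 8 and 9 for miR-379KO, did not pass the filter. Ednrb had 1 count in total RNA of WT B and 1 in that of miR-379KO B, and 0 in the A libraries. Its AGO2-IP counts were higher, 5 and 2 for WT against 14 and 16 for miR-379KO.

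Ptgs1 (chr2:36216742-36258593, plus strand) encodes the cyclooxygenase that most cells make all the time. It was steady in total RNA, at 697 and 510 counts for WT and 867 and 602 for miR-379KO. At 41.6, 27.9, 37.7 and 35.3 CPM the miR-379KO libraries lay between the WT ones, and the log2 fold change was 0.07 ± 0.26. Its AGO2-IP counts were 84 and 71 for WT, at 8.19 and 8.17 CPM, but 30 and 21 for miR-379KO, at 3.504 and 2.67 CPM. Each miR-379KO library was at 0.326 to 0.429 of either WT library. The log2 fold change was -1.40 ± 0.28, with an adjusted p of 0.00119 (edgeR), and it passed under each of 15 other settings or omissions.

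Ptgs2 (chr1:150100031-150108234, plus strand) encodes the inducible cyclooxygenase. Its total RNA counts were 3325 and 4926 for WT against 9885 and 6681 for miR-379KO, or 198, 269.5, 429.6 and 392 CPM. Both miR-379KO libraries lay above both WT libraries, and the 4 ratios of a miR-379KO to a WT library ran from 1.46 to 2.17. Among all tested genes 9.89% had groups apart in that direction. The log2 fold change was 0.81 ± 0.26, with an unadjusted p of 0.0184 and an adjusted p of 0.9997 (edgeR), so it was not called over all genes. Its 3′-UTR of 2452 bases held 14 copies of ATTTA on the sense strand, the core of the AU-rich elements that shorten the life of such mRNAs. That is 5.71 per kb, denser than in 97.5% of 12204 genes with a 3′-UTR of at least 500 bases, whose median was 1.52 per kb. Agtr1b (5.63 per kb) and Ptger4 (4.06 per kb) were the next densest of the 10 genes, while Ednra and Ptgs1 held no copy. The AGO2-IP counts of Ptgs2 were 607 and 1173 for WT against 425 and 431 for miR-379KO, or 59.2, 135, 49.6 and 54.8 CPM. The WT B library was the high one, and WT A lay just above the miR-379KO libraries. The log2 fold change was -0.89 ± 0.32 with an adjusted p of 0.0432 (edgeR), and without WT B it was -0.23 with an adjusted p of 0.681.

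Ptger4 (chr15:5233399-5244187, minus strand) encodes EP4, a prostaglandin E2 receptor that raises cyclic AMP. Its total RNA counts were 380 and 294 for WT against 702 and 266 for miR-379KO. At 22.7, 16.1, 30.5 and 15.6 CPM the miR-379KO libraries fell on either side of the WT ones, and the log2 fold change was 0.25 ± 0.37. Its AGO2-IP counts were 84 and 68 for WT against 38 and 28 for miR-379KO, or 8.19 and 7.83 CPM against 4.44 and 3.56. Those groups did not overlap and the log2 fold change was -0.997 ± 0.27 (adjusted p = 0.00826, edgeR).

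Avpr1a (chr10:122448499-122453453, plus strand) encodes the V1a receptor, through which vasopressin contracts vascular cells. Its total RNA counts, 1 and 7 for WT against 10 and 7 for miR-379KO, were too few to be tested. Its AGO2-IP counts were 3 and 3 for WT against 10 and 8 for miR-379KO.

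Across the group, total RNA gave no call between genotypes. Of the 10 genes 6 were tested (Edn1, Ece1, Ednra, Ptgs1, Ptgs2, Ptger4), and 0 passed an adjusted p of 0.05 in edgeR, in DESeq2 or in limma-voom, against 0% of all 12321 tested genes (percent called 0). By an unadjusted p under 0.05 in edgeR, 1 of them, Ptgs2, passed. Ptgs2 also met the cutoff that the study used, that unadjusted p together with a fold change over 1.5, which 0.682% of all tested genes met. The median log2 fold change was 0.16 for these 6 genes and -0.01 over all tested genes. Ptgs2 kept its direction under all 15 other settings or omissions, with log2 fold changes of 0.61 to 1.05. Its unadjusted p ran from 0.00245 to 0.114. It was above 0.05 without miR-379KO A (0.114), without miR-379KO B (0.0762), with a correction for exon GC content and length (0.0573) and with that correction and the replicate letter as a block (0.0695). Edn1 had an unadjusted p under 0.05 without WT B (0.00934) and with the replicate letters crossed (0.0430).

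**Figure D2:**
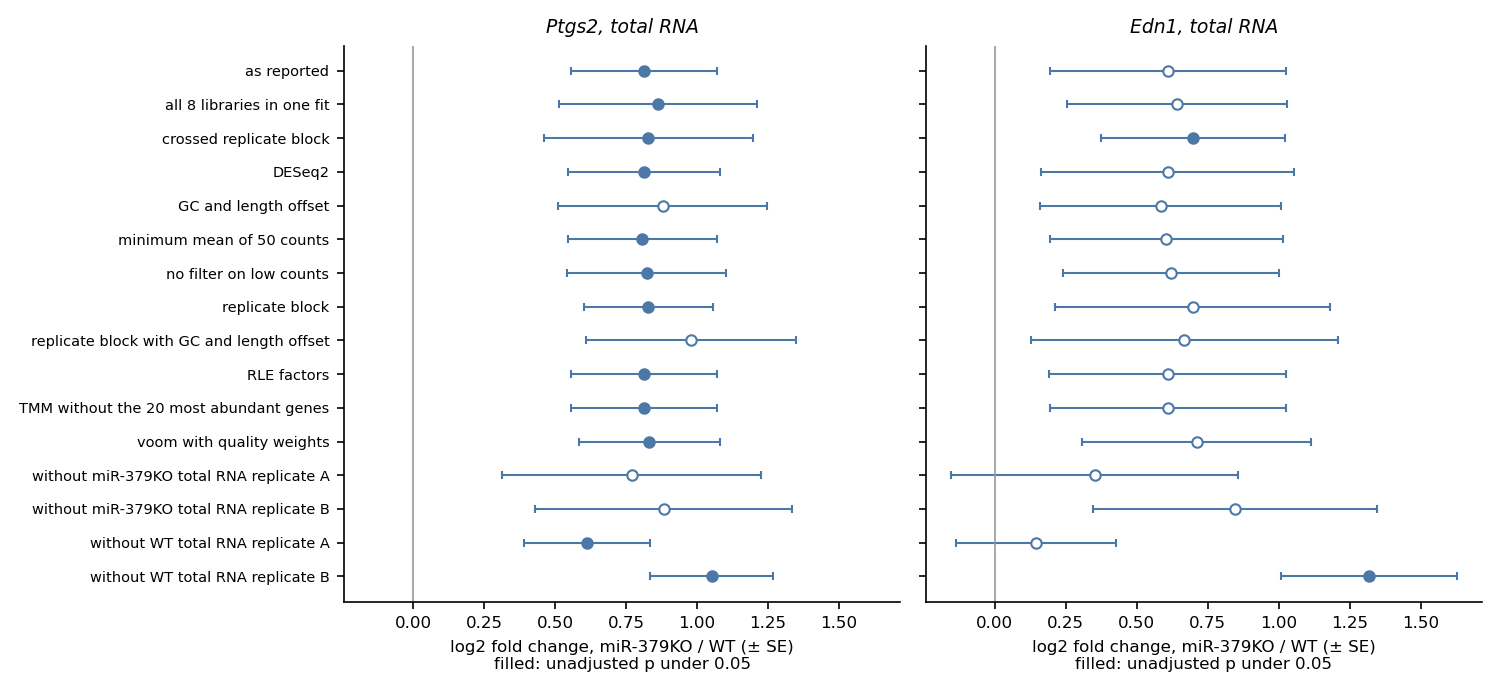
Log2 fold change in total RNA, miR-379KO over WT (x axis, bars are 1 SE), of Ptgs2 (left) and Edn1 (right) as reported and under each other setting or omitted library (y axis); filled points have an unadjusted p under 0.05. Ptgs2 stayed between 0.61 and 1.05, while Edn1 ran from 0.14 without WT A to 1.32 without WT B.

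In AGO2-IP 4 of the 5 expressed genes were lower in miR-379KO, and 3 genes with at most 10 counts in any total RNA library were higher. Of the 8 genes tested, 4 were lower at an adjusted p of 0.05, Ptgs1, Ptger4, Ece1 and Ptgs2, where 9.52% of all tested genes were lower. Another 3 were higher, Agtr1b, Ednrb and Avpr1a, where 21.4% of all tested genes were. The groups did not overlap for those 7, as for 68.3% of tested genes in either direction. The median over the 8 genes was -0.62 on the log2 scale, compared to -0.01 over all 13505 tested genes. Agtr1b, Ednrb and Avpr1a had log2 fold changes of 2.28 ± 0.53, 2.26 ± 0.52 and 1.75 ± 0.52, with adjusted p of 0.00302, 0.00273 and 0.0202 in edgeR. They passed the filter on low counts through their miR-379KO libraries alone, where they were high, so that their direction is not independent of their being tested. The filter scales its minimum with the gene counts of a library, which include Rn45s and Lars2, and came to 22 (WT A), 12 (WT B), 9 (miR-379KO A) and 7 (miR-379KO B) counts. A gene had to reach it in 2 libraries. Of the 2887 genes higher in miR-379KO over the whole table, 2568 did not reach it in both WT libraries and were tested through those of miR-379KO. Of the 1286 lower genes, 18 did not reach it in both miR-379KO libraries. Ptgs1, Ptger4, Ece1 and Ptgs2 reached it in all 4. With no filter on low counts, Agtr1b (2.08, adjusted p = 0.0203) and Ednrb (2.06, 0.00643) were called in edgeR, while Avpr1a (1.54, 0.0955) was not.

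Among genes well represented in total RNA, the share called lower in AGO2-IP differed with the total RNA level. Of 6251 genes with a mean of 100 to under 1000 total RNA counts 5958 were tested, of which 5.14% were lower in miR-379KO and 4.67% higher, with Edn1, Ptgs1 and Ptger4 in this range. Of 3655 genes with 1000 or more 3653 were tested, of which 26.4% were lower and 0.192% higher, with Ece1 and Ptgs2 in this range. Of 12335 genes under 10 counts only 2542 were tested, Agtr1b, Ednrb and Avpr1a among them, and since passing the filter could depend on the direction of change no share is read from them. Set beside genes in the same narrow range of total RNA level, Ptgs1 had a lower log2 fold change than all but 0.193% of 1556 genes and Ptger4 than all but 1.88% of 1433 genes. Ece1 stood at 9.75% of 1457 genes from the low end, Ptgs2 at 15.2% of 250 and Edn1 at 19.2% of 1433. The share of reads outside genes and the share of Rn45s and Lars2 moved with genotype in AGO2-IP, and their part in these changes was not tested.

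**Figure D3:**
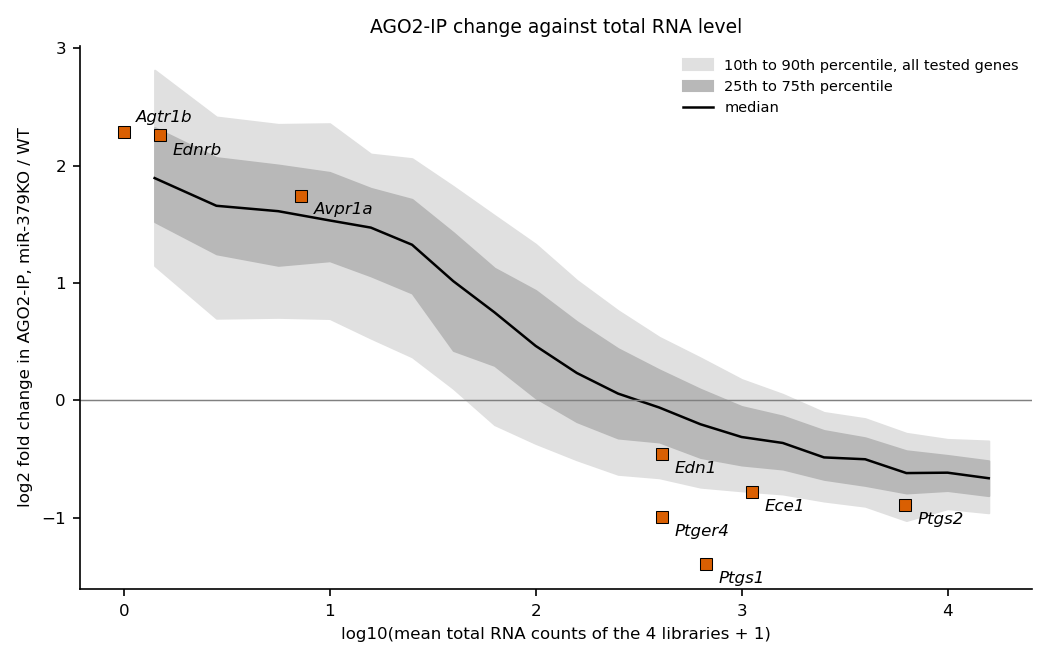
Log2 fold change in AGO2-IP, miR-379KO over WT (y axis), against log10 of the mean total RNA count of the 4 libraries plus 1 (x axis); the line is the median of all tested genes in bins of level, the bands their 25th to 75th and 10th to 90th percentiles, and squares the 8 genes tested. Ptgs1 (-1.40) and Ptger4 (-0.997) lay well under the 10th percentile of genes at their level and Ece1 near it. At the left, where 2542 of 12335 genes with under 10 total RNA counts passed the filter, the median is not a measure of all genes at that level.

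Which AGO2-IP calls held depended on the setting. Ptgs1 was called in all 15 of them, with adjusted p of 2.04e-05 to 0.0364. Ptger4 was called in 11, Ece1 in 9 and Ptgs2 in 7. With DESeq2, with all 8 libraries in 1 fit, with a minimum mean of 50 counts, or without miR-379KO B, Ptgs1 was the only one of the genes called. Avpr1a was not called without WT A (adjusted p = 0.291), without WT B (0.279) or without miR-379KO B (0.234), and Agtr1b was called under none of the 4 omissions (0.0839 to 0.127). Ednrb was lost without miR-379KO B (0.113), as were Ece1 (0.199) and Ptger4 (0.126).

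For the 5 expressed genes the fitted AGO2-IP change was lower than the fitted total RNA change, with no call over all genes. The difference of the log2 fold changes was -1.91 ± 0.50 for Ptgs2, -1.71 ± 0.38 for Ptgs1, -1.49 ± 0.46 for Ptger4, -1.24 ± 0.64 for Edn1 and -0.85 ± 0.35 for Ece1. The 5 did not pass the adjusted threshold in edgeR, which 0 of 17429 genes passed (percent called 0). The adjusted p of these 5 was 0.229 to 0.361 in edgeR. At an unadjusted p under 0.05, 4 of the 5 were lower (Ptgs1 0.000303, Ptgs2 0.00139, Ptger4 0.00484, Ece1 0.0278), as were 10.9% of all genes. That share includes genes with few or no total RNA counts, and none was taken for genes at the level of these 5. DESeq2 called Ptgs2 (-1.66, adjusted p = 0.0174) and, by its own filter on low means, gave the 9 other genes no adjusted p, with an unadjusted p of 0.0032 for Ptgs1 and 0.0404 for Ptger4. With the GC content and length correction, Ptgs2 (-2.91), Ptgs1 (-1.91) and Ptger4 (-1.63) were called, and the median of all genes moved to -0.33. Over all alternatives the difference ran from -2.91 to -0.92 for Ptgs2, from -1.94 to -1.26 for Ptgs1 and from -1.94 to -0.91 for Ptger4. Without WT total RNA B, Edn1, Ptgs1 and Ptgs2 were called, at -2.13, -1.56 and -2.30. Ednra (0.36 ± 0.91) and Avpr1a (0.72 ± 1.18) had differences smaller than their errors. Ednrb, with 2 total RNA counts in all, had a difference of 2.24 ± 2.20, and Agtr1a and Agtr1b, with 0, had none that could be estimated.

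**Figure D4:**
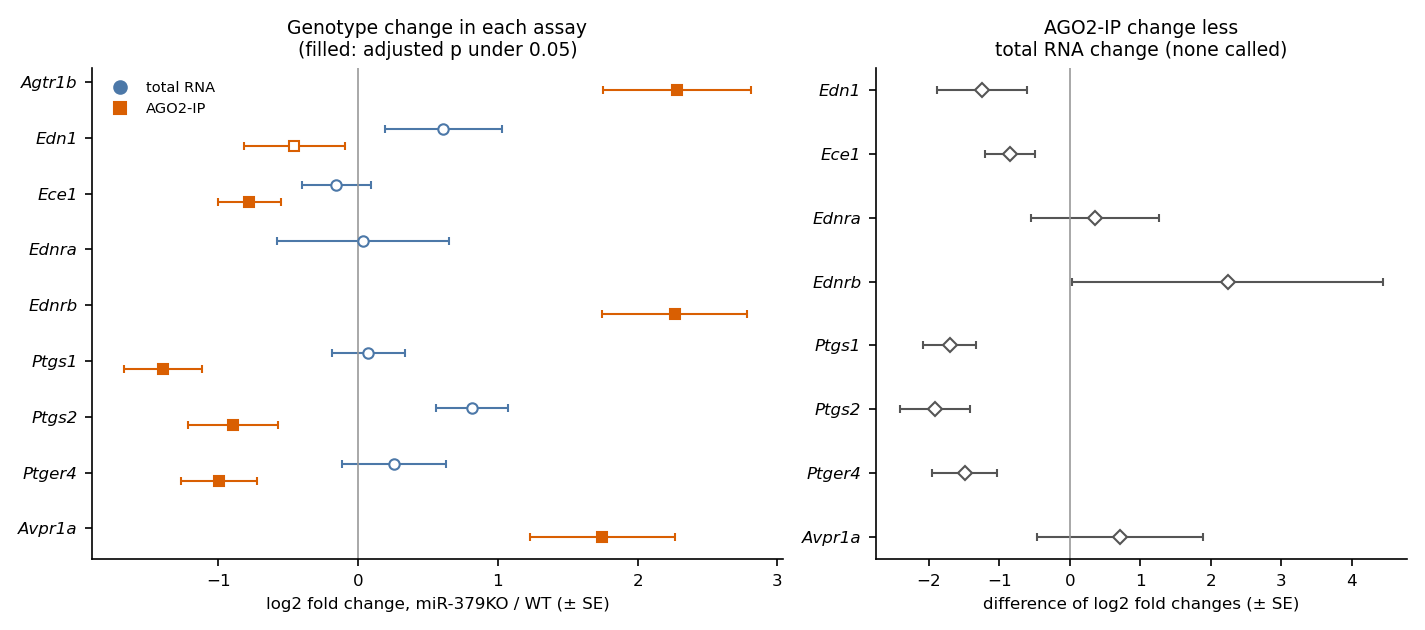
Left, log2 fold change of miR-379KO over WT (x axis, bars are 1 SE) in total RNA (circles) and AGO2-IP (squares) for the genes tested (y axis), filled where the adjusted p was under 0.05. Right, the difference between the changes in the assays for the genes with a value, which was -1.91 for Ptgs2 and -1.71 for Ptgs1 and passed the adjusted threshold for none.

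Recovery in AGO2-IP relative to total RNA was also compared within each genotype, where assay and library protocol change together. In WT MMC 6 of the 10 genes were higher in AGO2-IP, where 38.7% of all genes were. These were Agtr1a, Agtr1b, Ednrb, Avpr1a (2.90 ± 0.94 on the log2 scale, adjusted p = 0.0158, edgeR), Ptger4 (1.24 ± 0.32, 0.00376) and Ptgs2 (1.22 ± 0.35, 0.00869). None was lower, where 12.8% of all genes were. Ednra (1.27 ± 0.67), Ece1 (0.60 ± 0.25), Ptgs1 (0.43 ± 0.25) and Edn1 (0.02 ± 0.44) did not pass. In miR-379KO MMC 5 were higher, Agtr1a, Agtr1b, Ednrb, Avpr1a (3.61 ± 0.69, 0.000171) and Ednra (1.63 ± 0.64, 0.0302), where 43.9% of all genes were. Ptgs1 (-1.28 ± 0.28, 0.000626) and Edn1 (-1.23 ± 0.46, 0.0294) were lower there, as were 25.9% of all genes. Ptgs2 (-0.69 ± 0.35), Ece1 (-0.25 ± 0.25) and Ptger4 (-0.25 ± 0.34) did not pass in miR-379KO. Agtr1a, Agtr1b, Ednrb and Avpr1a passed the filter on low counts of these fits through their miR-379KO AGO2-IP libraries alone, where they were high. Their direction is therefore not independent of their being tested, most directly in miR-379KO. The shares of all genes higher in AGO2-IP can carry the same limit. The size and sign for Ptgs2 and Edn1 in WT depended on the scale. With that correction Ptgs2, whose exons are 40.0% G and C, moved to -0.56 and Edn1 to -0.81, while the median of all genes moved from 0.49 to -0.29.

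The wider pathways held 106 further genes in 7 lists, chosen by function. In total RNA 70 of them were tested and 0 were called in edgeR, and 1, the soluble guanylate cyclase gene Gucy1b3, met the study cutoff (log2 fold change 0.62 ± 0.25, unadjusted p = 0.0474). In AGO2-IP 16 of 75 were higher and 6 lower, against the 21.4% and 9.52% of all genes. Of these 16, 15 did not reach the filter in both WT libraries, the exception being Plcb1, so that the same limit holds for these 15, while the 6 lower genes reached it in all 4. The difference between the assays was called for 0 of 96.

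The rest of the renin-angiotensin system was present mainly as peptidases and accessory proteins. Of 15 genes, 6 were at 1 CPM or more in every total RNA library, and the highest per kb were Lnpep, an angiotensin IV-binding peptidase (39.8 to 102 CPM), and Atp6ap2, the prorenin receptor (35.6 to 63.0 CPM). Renin (Ren1) had 0 counts. Of 10 tested in AGO2-IP, 3 were higher in miR-379KO, among them Mme (neprilysin, 2.21 ± 0.38) and Ace (2.04 ± 0.58), with adjusted p of 0.0004 and 0.0130 in edgeR. Ace had at most 5 counts in any total RNA library. For the endothelin genes beside the 4 above, Ece2 (6.86 to 12.5 CPM) was expressed, Edn3 reached 0.383 CPM, and 0 of 1 tested was called.

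Genes listed for prostanoid synthesis and clearance were expressed beyond the cyclooxygenases. Of 12 genes 7 were at 1 CPM or more, led by Ptges3, listed here as a prostaglandin E synthase (157 to 213 CPM), and Pla2g4a, the phospholipase that frees arachidonic acid (66.7 to 84.8 CPM). Ptges, in the same list, reached only 0.565 CPM. In AGO2-IP, 2 of 10 were higher in miR-379KO, Hpgds (2.32 ± 0.53) and Hpgd (2.01 ± 0.50), each with at most 5 counts in any total RNA library. Of 8 other prostanoid receptor genes only Ptger1 (2.23 to 2.79 CPM) was at 1 CPM or more, and Tbxa2r, the thromboxane receptor, reached 0.528 CPM. Ptger2 (2.11 ± 0.56) and Ptgfr (1.67 ± 0.48) were higher in miR-379KO AGO2-IP, with at most 10 counts in any total RNA library. Of the vasopressin and oxytocin genes, Oxtr, the oxytocin receptor, was present at 2.84 to 10.4 CPM and Avpr1b reached 0.0547 CPM, and 0 of 5 could be tested in AGO2-IP.

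The list of other vasoactive agents held receptors and the nitric oxide and guanylate cyclase enzymes. Of its 32 genes 16 were at 1 CPM or more, led per kb by F2r, the thrombin receptor PAR1 (454 to 1070 CPM), and Npr3, the natriuretic peptide clearance receptor (218 to 408 CPM). In AGO2-IP, F2r (-0.96 ± 0.28), S1pr3 (-0.79 ± 0.25) and Npr2 (-0.75 ± 0.25) were lower in miR-379KO, and P2ry1 (1.94 ± 0.51), Nos2 (1.99 ± 0.52) and Adra1b (2.07 ± 0.55) were among 5 that were higher. F2r, S1pr3 and Npr2 had 594 or more counts in each total RNA library, and P2ry1, Nos2 and Adra1b 38 or fewer. The G protein pathway below the receptors was expressed nearly whole, with 27 of 31 genes at 1 CPM or more, led per kb by Gna11 (151 to 216 CPM) and Rock2 (292 to 542 CPM). In AGO2-IP 3 of 30 were lower, among them Arhgef1 (-0.83 ± 0.23) and Plcb3 (-0.88 ± 0.25). Another 4 were higher, among them Trpc6 (1.97 ± 0.42), Plcb1 (1.27 ± 0.29) and Plcb2 (1.91 ± 0.50). The AGO2-IP changes of these named genes had adjusted p of 0.00167 to 0.0240 in edgeR.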

How the data were processed

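Total RNA and AGO2-IP were sequenced from WT and miR-379KO MMC, 2 libraries each. The values used are gene counts as the authors deposited them, whole reads per RefSeq gene without normalization, 1 list per library. In the authors' methods a stranded mRNA kit was used for total RNA, reads were aligned to mm10 with TopHat and counted with htseq-count (HTSeq 0.6.0) in reverse-stranded mode, and AGO2-IP reads were processed the same way. The submitters' processing notes also name Bowtie2 2.1.0.1. The methods call the sequencing of this AGO2-IP RNA small RNA-seq, with paired-end reads, and its strand was checked in the counts. Reads placed in several locations were not counted.

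Here the whole table was tested in edgeR 4.0.16 (R 4.3.3) with TMM factors, filterByExpr (minimum count 10), robust quasi-likelihood F tests and Benjamini-Hochberg adjustment over all genes tested. SE is the log2 fold change divided by the square root of F. Genotypes were compared within the 4 libraries of an assay, and contrasts across assays used all 8. Symbols were matched to RefSeq GRCm38.p6 (98.7% of entries, 23598 by symbol and 716 by synonym). The fitting was tested on simulated data. Replicates of a group differed by more than sampling noise (chi-square per degree of freedom 3.51 to 119). Samples with the same letter did not deviate together (r = -0.11 over 10763 genes in total RNA and 0.04 over 4971 in AGO2-IP, across genes). Alternatives were DESeq2 1.42.0, voom in limma 3.58.1, RLE factors, no filter on low counts, TMM without the 20 most abundant genes, all 8 libraries in 1 fit, a mean of at least 50 counts, GC content and length offsets (lowess, span 0.3), a replicate block and omission of each library. The 10 genes are named in every comparison. Of the pathway lists, genes past the adjusted threshold in either genotype comparison or past the study cutoff in total RNA are named, at most 6 per list by smallest p, with the 2 highest per kb of exon, except for a few that stay in the counts and are not reported here. Ren1 and Ptges are also named, for their low level in total RNA. The genes, lists and tests were chosen with earlier results of these data known.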

Additional observations from a re-analysis of the deposited data

How the results depend on the processing

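In total RNA 0 of the genes were called under each of 15 alternatives. The number past the study cutoff, 1 as reported, was 0 with the GC content and length offset and with that offset and the replicate block, 2 with the crossed replicate block (WT A with miR-379KO B, chosen after seeing the data), and 0 to 2 when a library was left out. With the replicate block alone it was 1. The replicate letters share only a number, and blocking on them moved the genes called in AGO2-IP from 4173 to 3817 and in total RNA from 0 to 0. Of the 10 genes, the block left Ptgs2 without a call in AGO2-IP (-0.78, adjusted p = 0.0727, edgeR). The number of the 10 genes called in AGO2-IP, 7 as reported, was 1 with DESeq2, with all 8 libraries in 1 fit and with a minimum mean of 50 counts, and 1 to 5 when a library was left out (5 without WT A or miR-379KO A, 4 without WT B, 1 without miR-379KO B). A group left with 1 library is assumed there to vary like the others. For the difference between assays, 0 as reported, it was 1 with DESeq2, which gave an adjusted p to Ptgs2 alone, 3 with the offset, 3 with the offset and block, and 0 to 3 when a library was left out (1 without WT total RNA A, 3 without WT total RNA B). For AGO2-IP against total RNA in WT, 6 as reported, it was 3 with a minimum mean of 50 counts and 3 without either WT AGO2-IP library, the lowest of 3 to 6 over omissions. In miR-379KO, 7 as reported, it was 1 with a minimum mean of 50 counts and 4 without either miR-379KO AGO2-IP library, the lowest of 4 to 8 over omissions. The cause of these shifts was not tested, except that the minimum mean removes genes from the test.

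Of 608 log2 fold changes of single genes under alternatives, 497 kept their direction and side of the threshold, 54 no longer passed, 26 newly passed and 31 reversed. In total RNA, Ednra reversed with the block (-0.13), the crossed block (-0.11), the block with offset (-0.0924) and voom (-0.0738), and ran from -0.90 to 0.59 over omissions. When a library was left out, Ece1 ran from -0.35 to 0.0352, Ptgs1 from -0.19 to 0.39 and Ptger4 from -0.29 to 0.66. In the difference between assays, Ednra reversed with the offset (-0.0779) and ran from -0.23 without miR-379KO total RNA B to 1.33 over omissions, and Avpr1a ran from -1.12 without WT total RNA B to 1.51. Between AGO2-IP and total RNA in WT, Edn1 reversed with DESeq2 (-0.0417), RLE factors (-0.0371), the offset (-0.81) and the block with offset (-0.80), and ran from -0.56 to 0.84 over omissions. Ptgs1 (-0.28 and -0.26) and Ptgs2 (-0.56 and -0.58) reversed with the offset and with the block and offset. In miR-379KO, Ece1 (0.27) and Ptger4 (0.28) reversed with a minimum mean of 50 counts, and Ptger4 ran from -0.74 to 0.30 over omissions.

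Over all genes, calls in AGO2-IP ran from 274 with a minimum mean of 50 counts to 5150 with no filter on low counts, and in the difference between assays from 0 to 1861. As reported 2887 genes were higher in miR-379KO AGO2-IP and 1286 lower. The offset gave 1962 and 1623 (median log2 fold change -0.10), and TMM factors from genes with 10 or more counts in every total RNA library, chosen after seeing the data, 3381 and 526 (median 0.18). Counts of 1 to 16 per AGO2-IP library limit the precision for Agtr1a, Agtr1b, Ednra, Ednrb and Avpr1a.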
